A study of Homo sapiens with 4 samples.

Results

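Chromatin accessibility was examined at the 10 core genes of the TGF-beta pathway in LNCaP cells and in their enzalutamide-resistant derivatives. The genes were the ligands TGFB1, TGFB2 and TGFB3, the receptors TGFBR1, TGFBR2 and TGFBR3, and the signal transducers SMAD2, SMAD3, SMAD4 and SMAD7, 10 of 20037 protein-coding genes in the RefSeq annotation of GRCh38. All ATAC-seq peak summits inside the gene body or within 20 kb on either side of it were taken. This gave 227 of the 341073 summits deposited for 4 libraries. ATAC-seq uses a transposase to insert sequencing adapters into open DNA, and a summit is the single base at which a peak is highest. LNCaP is a prostate cancer cell line that depends on the androgen receptor, and 2 libraries came from it (genotype WT, no treatment stated). The other 2 libraries, labelled LNCaP-resistance, came from resistant cells treated with enzalutamide, an antagonist of the androgen receptor. The labels give no subline number, while the names of the deposited lists carry the number of the subline LN-35. The study selected its sublines by stepwise escalation of the drug after adaptation to charcoal-stripped serum. Selection, adaptation and the presence of the drug therefore cannot be told apart in these libraries, and nothing in the labels says that the 2 libraries of a group were separate cultures.

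TGF-beta ligands are secreted in a latent form and bind the type II receptor TGFBR2, which then phosphorylates the type I receptor TGFBR1. TGFBR3, also called betaglycan, is a co-receptor that presents ligand, above all TGF-beta 2. The activated type I receptor phosphorylates SMAD2 and SMAD3, which enter the nucleus with SMAD4 and bind DNA, and SMAD7 is an inhibitory SMAD that is itself induced by the pathway. In prostate epithelium the pathway restrains growth, whereas in advanced carcinoma it is associated with epithelial-mesenchymal transition, and LNCaP cells are known for a weak growth response to TGF-beta.

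The promoter sequences are shown for the members whose promoter summits differed between the cell types without overlap. Each run holds the 250 bases before a RefSeq start (GRCh38.p14), written 5′ to 3′ on the strand of the gene. Capitals mark matches to 4 motifs on either strand, none of which overlap here. CAGAC is known as a SMAD-binding element. GGGCGG is the GC box bound by SP1. The TATA box was searched as TATAAA. The core of the cAMP response element (CRE) was searched as TGACG, and this motif and the TATA box were added after the sequences had been seen.
TGFB1, chr19:41353923-41354172, minus strand: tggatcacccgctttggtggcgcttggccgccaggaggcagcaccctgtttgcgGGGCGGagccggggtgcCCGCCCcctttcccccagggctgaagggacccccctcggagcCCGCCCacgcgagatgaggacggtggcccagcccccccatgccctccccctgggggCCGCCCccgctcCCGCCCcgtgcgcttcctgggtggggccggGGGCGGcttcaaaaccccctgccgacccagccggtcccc
TGFB2, chr1:218345086-218345335, plus strand: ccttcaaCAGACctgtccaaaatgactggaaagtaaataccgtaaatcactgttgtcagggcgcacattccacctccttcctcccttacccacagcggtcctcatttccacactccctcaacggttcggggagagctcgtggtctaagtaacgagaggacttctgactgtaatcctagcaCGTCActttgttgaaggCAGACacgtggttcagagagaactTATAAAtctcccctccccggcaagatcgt
TGFB3, chr14:75981996-75982245, minus strand: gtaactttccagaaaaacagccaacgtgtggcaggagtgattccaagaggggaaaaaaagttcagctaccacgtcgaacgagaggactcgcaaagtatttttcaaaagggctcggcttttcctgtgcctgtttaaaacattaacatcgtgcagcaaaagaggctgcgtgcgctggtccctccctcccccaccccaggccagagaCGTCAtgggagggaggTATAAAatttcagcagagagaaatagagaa
TGFBR1, chr9:99104833-99105082, plus strand: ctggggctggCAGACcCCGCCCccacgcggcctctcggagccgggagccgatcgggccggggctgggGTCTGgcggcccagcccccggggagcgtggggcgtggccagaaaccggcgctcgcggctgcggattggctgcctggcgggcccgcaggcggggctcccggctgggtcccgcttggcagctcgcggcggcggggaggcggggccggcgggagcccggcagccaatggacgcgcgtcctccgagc
TGFBR3, chr1:91886152-91886401, minus strand: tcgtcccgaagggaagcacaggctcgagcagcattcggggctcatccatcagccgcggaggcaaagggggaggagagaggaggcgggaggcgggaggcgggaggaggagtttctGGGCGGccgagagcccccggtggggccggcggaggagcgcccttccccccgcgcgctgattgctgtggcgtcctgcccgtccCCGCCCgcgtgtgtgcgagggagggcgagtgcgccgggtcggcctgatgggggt

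The TGFB1 window held 6 GC boxes, had a GC content of 76.8% and contained no summit. The TGFB2 and TGFB3 windows had a lower GC content, of 50.4% and 49.2%, and each held 1 TATA box with 1 TGACG match upstream of it. The TGFB2 window also held 2 CAGAC matches, the TGFBR1 window held 2 CAGAC matches and 1 GC box, and the TGFBR3 window held 2 GC boxes. Over all 35116 listed starts, the window from 250 bases before to 50 bases past the start held TATAAA in 11.5%, TGACG in 24.6%, CAGAC in 45.3% and GGGCGG in 45.0% of cases. Of the 26 listed starts of the 10 genes, 3 held TATAAA, 5 held TGACG, 11 held CAGAC and 11 held GGGCGG. Matches to TGANTCA (AP-1) were found in 2 of the 26 windows against 7.71% of all, to TGTTTAC (forkhead) in 0 against 3.42%, to TGTTCT (an androgen receptor motif) in 4 against 14.8% and to CCAAT in 10 against 34.6%. Matches describe letters in these windows and are not evidence of binding.

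The libraries differed in the number of summits, and this bears on every comparison. The lists held 117245 and 107344 summits in LNCaP replicates 1 and 2, and 70866 and 45618 summits in resistant replicates 1 and 2. No read counts were given, so the sequencing depth is unknown. Each summit carries a score, a −log10 value either of a p-value or of a q-value, and comparisons between libraries used its rank within its own library. Scores printed beside ranks are not on 1 scale across libraries, and an alternative kept only scores of at least 10. A percentile gives the percent of summits in the same library that scored no higher, and 0 stands for no summit. A longer list ends in more weak summits, which raises the percentile of any given site in it. With 2 libraries against 2 an exact permutation test cannot give a two-sided p below 0.333, so no p-values are given. Groups were called different when both libraries of one lay above both of the other, and each count is set beside the percent of all regions or genes called by the same rule. Summits near the starts or ends of other cell types' markers were sparse. Of 12 basal, stromal, endothelial and leukocyte markers, 4 had a summit near a gene start or end in any library, and of 9 prostate luminal markers 8 did. Both resistant libraries were lower at 4 luminal markers, at the basal marker KRT14 (34.3 and 40.6 against 0 and 0) and at the stromal marker COL1A2 (63.0 and 55.3 against 37.1 and 17.5), 6 of 21 markers in all, and at none were both higher. The stromal marker ACTA2 had a summit in all 4 libraries. No endothelial marker had one near a gene start or end, although all 3 had summits within their bodies and 20 kb flanks. The part of other cell types in the results was not tested.

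The promoters of the 3 ligands showed the widest differences among the members. Promoter accessibility was taken as the percentile of the strongest summit within 1 kb of a listed start. Of the 10 genes, 4 (TGFB1, TGFB2, TGFB3 and TGFBR1) had higher promoter percentiles in both resistant libraries, against 28.7% of the 12102 protein-coding genes with a listed start and a summit near it. TGFBR3 was the 1 gene with lower percentiles, against 21.3% of all genes. The other 5 genes overlapped between the groups. The median change, resistant minus LNCaP, was 5.10 percentile points over the 10 members and 0.52 over all genes. Within each replicate number, TGFBR2 was also higher in both pairs, which made 5 of 10 against 35.3% of genes. When every list was reduced to its 45618 highest scores, 6 members were higher and 0 lower, while 66.3% of genes were higher and 5.85% lower, so the balance of directions depended on the length of the lists.

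**Figure D1:**
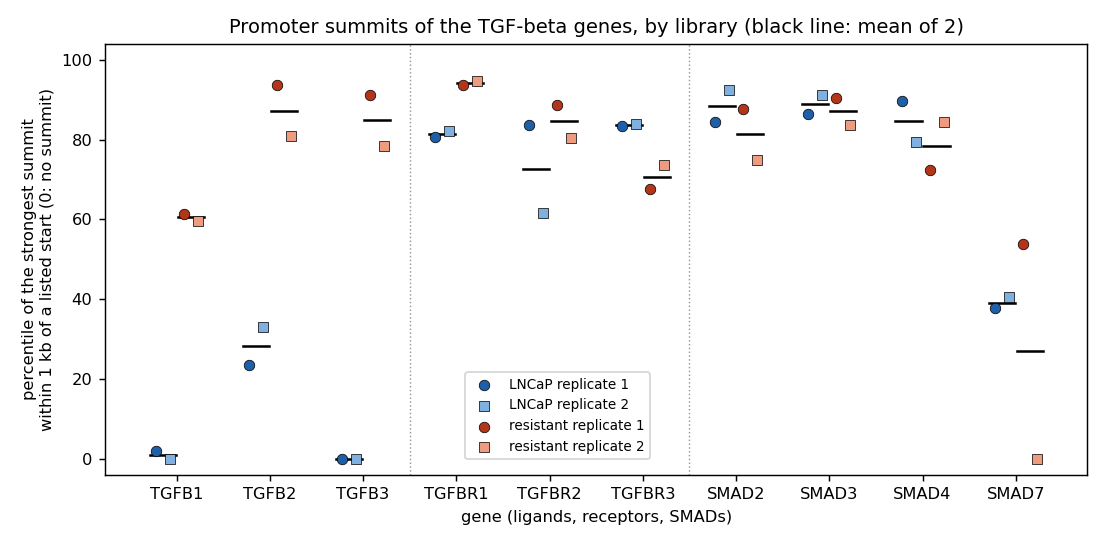
Percentile of the strongest summit within 1 kb of a listed start (vertical axis, 0 for no summit) for each of the 10 genes in the 4 libraries, with black lines for the mean of 2 libraries. TGFB1, TGFB2 and TGFB3 lie at 33.1 or below in both LNCaP libraries and at 59.7 or above in both resistant libraries, and all receptor and SMAD promoters except SMAD7 lie at 61.6 or above in all 4 libraries.

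TGFB3, a ligand with roles in palate development and wound repair, had no summit within 1 kb of its 2 listed starts in either LNCaP library. Resistant replicate 1 had a summit 15 bp before the second start, at percentile 91.3 with a score of 74.0, and resistant replicate 2 had one 29 bp before it, at percentile 78.5 with a score of 28.0. Both lie within the printed TGFB3 sequence. A promoter summit in both resistant libraries and in no LNCaP library was seen at 3.76% of all genes (455 of 12102). The change of 84.9 ± 6.41 points (pooled SD, n = 2 per group) was matched or exceeded by 0.223% of genes. With lists of equal length it was 82.5, matched or exceeded by 0.889%. With a limit of 3 kb it was 12.3, still without overlap, since that window takes in the LNCaP region described next. The summits belonged to the second start, at position 75981995, and with the first listed start alone (75983011) only resistant replicate 2 had a summit within 1 kb and the groups overlapped. The summit of resistant replicate 1 lay 1.001 kb from that start, just past the limit. LNCaP cells had their own summit region upstream of the first start, close to the start of the neighbouring gene IFT43. Its summits lay at −2057 and −1946 bp in LNCaP replicates 1 and 2, at percentiles 72.5 and 72.8. Neither resistant library had a summit in this region. A separate region farther upstream, also within 1 kb of the IFT43 start, had summits in both cell types. They lay at −2744 bp in LNCaP replicate 2 (percentile 38.6) and at −2984 bp in resistant replicate 1 (percentile 29.96).

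TGFB2, the ligand that relies most on betaglycan, had a promoter summit in every library. Its percentiles were 23.6 and 33.1 in LNCaP and 93.6 and 80.9 in resistant cells. The scores were 5.84 and 6.63 in LNCaP and 82.8 and 30.7 in resistant cells. The groups did not overlap, and the change was 59.0 ± 7.93 points, matched or exceeded by 2.26% of genes. With lists of equal length, neither LNCaP summit remained and the change was 85.5, matched or exceeded by 0.572% of genes. The 4 summits lay 474 to 654 bp inside the gene, downstream of the printed sequence, so that a limit of 500 bp in place of 1 kb kept only 1 of them per group and the groups overlapped.

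TGFB1, the most widely expressed ligand, had promoter percentiles of 1.89 and 0 in LNCaP and 61.4 and 59.7 in resistant cells. The change was 59.6 ± 1.27 points and was matched or exceeded by 2.21% of genes, or by 13.3% with lists of equal length, where it was 49.9. The value of 0, and with it the small SD, rests on the 1 kb limit. LNCaP replicate 2 had a summit at percentile 43.5 that lay 1098 bp inside the gene, in the same region as summits of the other 3 libraries at 925 to 998 bp. Over that region (chr19:41352824-41352997) the percentiles were 1.89 and 43.5 in LNCaP and 54.0 and 59.7 in resistant cells, still without overlap. The change was 34.2, with an SD of 29.4 in LNCaP and 4.02 in resistant cells. With a limit of 3 kb the change at TGFB1 was 37.9. A second summit, 179 bp inside the gene, was present in resistant replicate 1 alone, and with a limit of 500 bp the groups overlapped.

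The receptors differed from one another. TGFBR1, the type I receptor kinase, had promoter percentiles of 80.7 and 82.2 in LNCaP and 93.6 and 94.7 in resistant cells, all at its CpG-rich start, with 3 of the 4 summits inside the printed sequence. The change of 12.7 ± 0.929 points exceeded the spread between libraries, and 18.1% of genes changed as far. TGFBR2, the type II receptor that binds ligand first, had percentiles of 83.6 and 61.6 in LNCaP and 88.7 and 80.6 in resistant cells. These overlapped, since LNCaP replicate 1 lay above resistant replicate 2. TGFBR3 had percentiles of 83.4 and 83.9 in LNCaP and 67.6 and 73.6 in resistant cells, a change of −13.0 ± 3.03 points that 9.43% of genes matched or exceeded. With lists of equal length TGFBR3 gave 57.3 and 62.1 against 49.7 and 73.6, which overlapped, with a change of 1.98 in the opposite direction.

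The promoters of the SMAD genes overlapped between the groups in all 4 cases. SMAD2, a receptor-activated transducer, had percentiles of 84.5 and 92.5 in LNCaP and 87.8 and 75.0 in resistant cells. SMAD4, the partner shared by all receptor-activated SMADs, had 89.7 and 79.5 in LNCaP and 72.4 and 84.3 in resistant cells. The SMAD4 values came from 2 regions. One upstream of the start was shared by all 4 libraries at 79.0, 79.5, 72.4 and 84.3, and the other, 0.963 kb inside the gene, had summits at 89.7 and 65.5 in LNCaP and none in resistant cells.

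SMAD3, the other receptor-activated transducer, has 5 listed starts, and summits were found near 2 of them. At the first start (67065602) the percentiles were 86.6 and 91.3 in LNCaP and 78.6 and 83.7 in resistant cells, lower without overlap. At the third start (67125742), which lies inside the gene, they were 58.6 and 60.2 in LNCaP and 90.4 and 65.2 in resistant cells, higher without overlap. The starts therefore differed in opposite directions, and the strongest of them overlapped, at 86.6 and 91.3 against 90.4 and 83.7. At the inhibitory SMAD7 the summits within 1 kb of a start were weak, at 37.8 and 40.5 in LNCaP, 53.9 in resistant replicate 1 and none in resistant replicate 2. A region at −1.78 kb from its first start was level in all 4 libraries, at 74.3, 72.5, 75.9 and 73.5.

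Beyond the promoters, fewer sites were found in the resistant lists, as across the genome. Windows of 250 bp to the left and right of each summit were joined across libraries where they overlapped, which gave 150917 regions on the main chromosomes and 100 at the 10 genes. Of the 100, 24 were shared by all 4 libraries, 27 were LNCaP-only (present in both LNCaP libraries and neither resistant library), 4 were resistance-only by the reverse rule and 45 were mixed. Of all regions 27.5% were LNCaP-only and 3.84% resistance-only, and of those within 20 kb of a protein-coding gene 26.3% and 3.80%. The members' counts were close to these shares. With lists of equal length 9 member regions were LNCaP-only, 8 resistance-only and 11 shared. Of all 77034 regions in those lists 17.1% were LNCaP-only and 14.9% resistance-only. Mixed member regions were not counted there, so the 9 and 8 are not out of 100 and give no share. Of the 45 mixed regions 35 had a summit in 1 library alone, with a median percentile of 16.8.

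**Figure D2:**
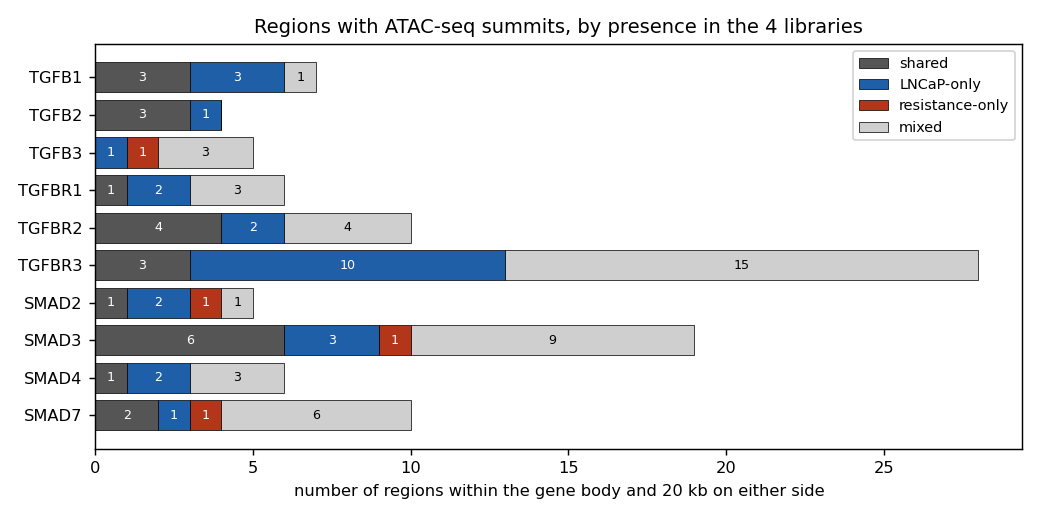
Number of regions (horizontal axis) in each gene body and 20 kb on either side, split into shared, LNCaP-only, resistance-only and mixed. TGFBR3 has the most regions (28) and the most LNCaP-only regions (10), and resistance-only regions are found once each at TGFB3, SMAD2, SMAD3 and SMAD7.

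Persistence was also counted by distance from a start. Of the 58 member regions with summits in both LNCaP libraries, 24 (41.4%) were also in both resistant libraries, against 37.0% of all such regions. A start was here a listed start of any protein-coding gene, or either end of such a gene with none listed. Within 1 kb of a start 11 of 15 (73.3%) were kept, and farther away 13 of 43 (30.2%). Across the genome these shares were 82.7% and 28.7%. By role, 6 of 11 LNCaP regions were kept at the ligands, 8 of 26 at the receptors and 10 of 21 at the SMADs.

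**Figure D3:**
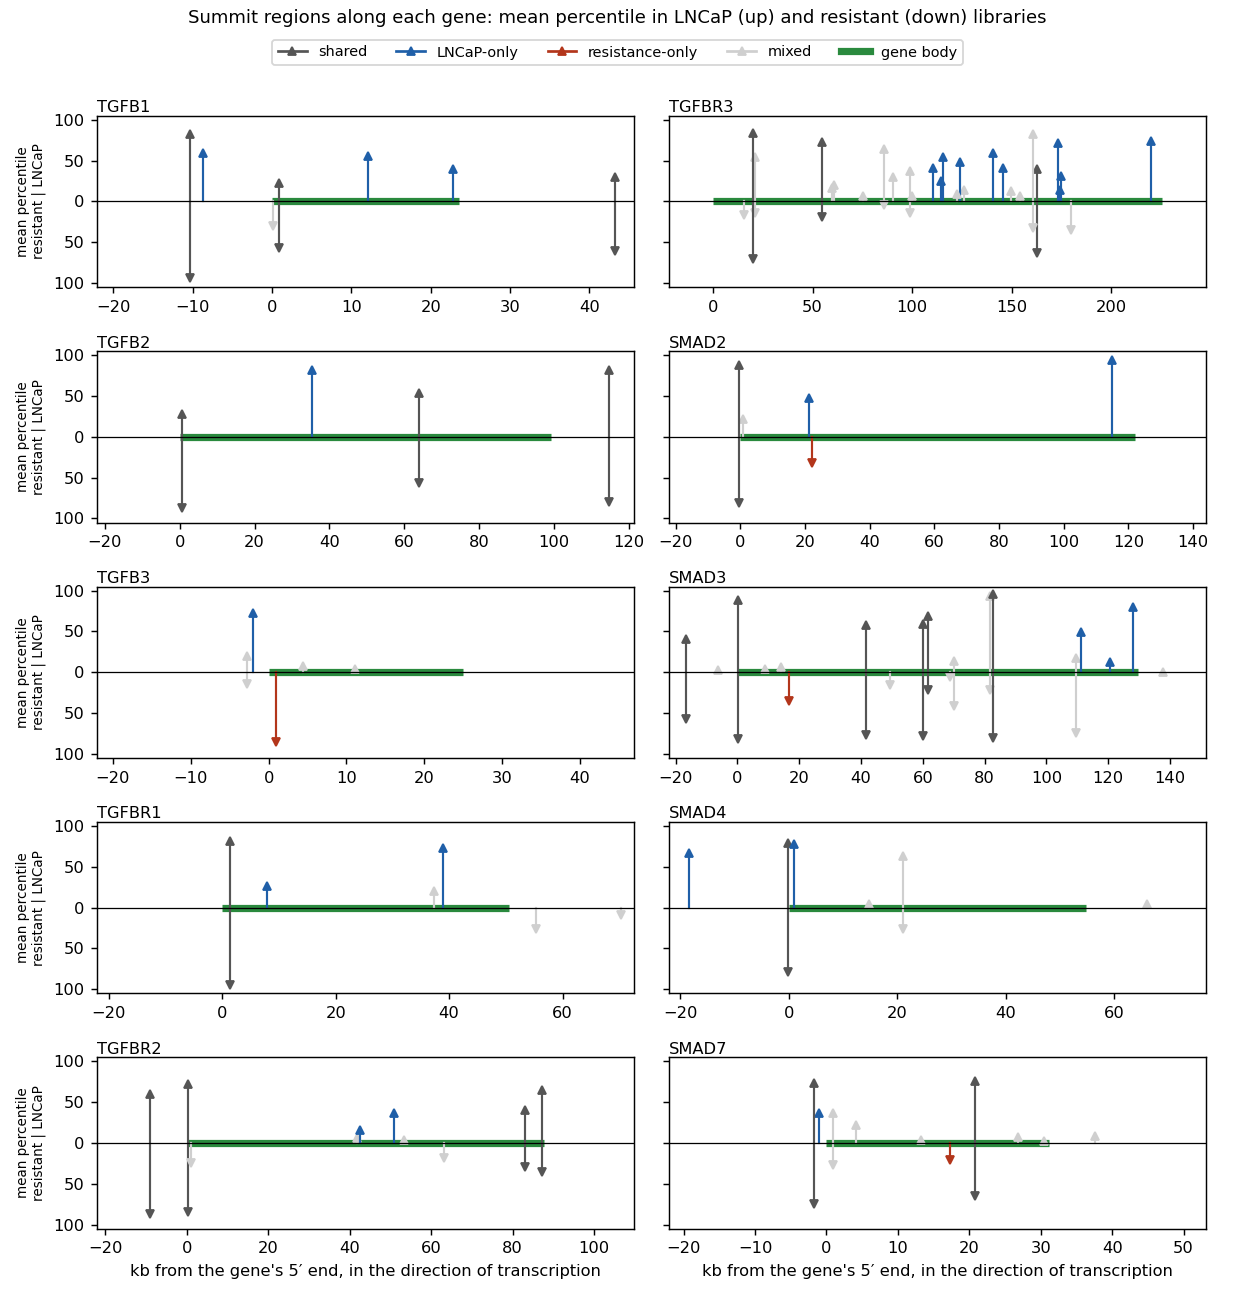
Position of each region in kb from the 5′ end of its gene (horizontal axis), with the mean percentile of the 2 LNCaP libraries upward and of the 2 resistant libraries downward, coloured by class over the green gene body. At TGFBR3 the LNCaP-only regions fill the body of the gene from 90.5 kb beyond its listed start onward, while TGFB3 has 1 resistance-only region beside an LNCaP-only region.

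The receptor TGFBR3 carried 28 of the 100 member regions and 10 of the 27 LNCaP-only regions. Of all regions 27.5% were LNCaP-only. Its domain of 265.66 kb held 23 and 20 summits in LNCaP and 8 and 4 in resistant cells. Per 100000 summits of the library this was 19.6 and 18.6 in LNCaP and 11.3 and 8.77 in resistant cells. The change of −9.10 ± 1.35 was matched or exceeded by 1.12% of 19119 genes with a summit in their domain. Those genes were not matched for domain length or number of summits, and a gene with few summits cannot fall as far. Of the 17 TGFBR3 regions present in both LNCaP libraries 3 were kept. Of all such regions 37.0% were kept, and 28.7% of those over 1 kb from a start or from either end of a gene with none listed. A kept TGFBR3 region (chr1:91851422-91851485, 34.7 kb inside) had percentiles of 68.9 and 77.4 in LNCaP and 21.4 and 16.5 in resistant cells. This was the largest decrease among the shared member regions that did not overlap. A region 141.0 kb inside held the strongest summit of the domain in LNCaP replicate 1, had percentiles of 90.4 and 74.6 in LNCaP and had a summit at 64.0 in resistant replicate 1 alone.

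SMAD3 moved the other way in summits per 100000, a direction called at 45.4% of all genes, while its raw counts overlapped. Its domain held 15 and 11 summits in LNCaP and 12 and 10 in resistant cells, or 12.8 and 10.2 against 16.9 and 21.9 per 100000. The change of 7.91 ± 2.80 was matched or exceeded by 1.72% of genes, again not matched for domain length or number of summits. Of its 10 regions in both LNCaP libraries 6 were kept, against 37.0% of all such regions. Among the 4 resistance-only regions 1 lay at −16.3 kb from the second SMAD3 start, at percentiles of 39.2 and 30.3. The sites inside SMAD3 that ranked highest in LNCaP were higher there. A region 10.4 kb beyond a start (chr15:67148410-67148427) had percentiles of 94.5 and 97.3 in LNCaP and 82.0 and 78.3 in resistant cells. A neighbouring region, 9.18 kb beyond the same start, had 93.3 and 92.5 in LNCaP, 42.5 in resistant replicate 1 and no summit in resistant replicate 2. Another, at chr15:67127219-67127283, had 66.1 and 71.6 against 26.9 and 17.0. Other sites went the opposite way. A region 8.62 kb beyond the last listed start had 34.4 and no summit in LNCaP and 79.1 and 68.6 in resistant cells, and one 8.41 kb beyond the second start had 67.0 and 48.4 against 88.3 and 65.6, which overlapped.

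Summits per 100000 were higher in both resistant libraries at TGFB2, TGFBR2 and SMAD3, 3 of 10 genes against 45.4% of all, and lower at TGFB1, TGFBR3 and SMAD4, again 3 of 10, against 19.0%. The median change was 0.25 over the members and 0.91 over all genes. Within each replicate number 5 members were higher, as were 9566 of the 19119 genes. At TGFB1 the counts were 6 and 6 in LNCaP and 3 and 2 in resistant cells, and the change of −1.04 per 100000 turned to 1.10 with lists of equal length and to 1.65 with scores of at least 10. At TGFB2 the change of 1.22 turned to −0.94 with flanks of 50 kb.

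The strongest single summit of a domain was higher in both resistant libraries at TGFB1, TGFB3, TGFBR1 and TGFBR2, 4 of 10 genes against 15.4% of all. It was lower at TGFBR3, SMAD2 and SMAD3, 3 of 10 against 42.9%. The median change was 2.01 over the members and −2.34 over all genes. At TGFB1 this summit belonged to a region at −10.3 kb from the TGFB1 start, at the starts of B9D2 and TMEM91, with percentiles of 83.3 and 81.7 in LNCaP and 93.7 and 94.5 in resistant cells. With the gene body alone TGFB1 and TGFBR2 overlapped between the groups, which left 2 members higher and made 5 lower.

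Among the LNCaP-only regions the strongest lay in SMAD2, 114.6 kb inside the gene (chr18:47816025-47816026), at percentiles of 95.7 and 93.3. The next were in TGFB2, 35.3 kb inside (78.5 and 84.2), in SMAD3, 27.0 kb beyond its nearest start (83.2 and 75.9), at SMAD4, as given above, and in TGFBR1, 36.7 kb beyond its nearest start (77.1 and 70.1). All 5 were in gene bodies. Of the 4 resistance-only regions the one at the TGFB3 start stood well above the others. Those in SMAD3, SMAD2 and SMAD7 lay inside the genes at percentiles of at most 39.2, and the SMAD7 region had 17.0 and 24.6.

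The 24 shared regions included both directions. In resistant cells 7 were higher and 6 lower without overlap, against 17.7% and 41.8% of all 31833 shared regions. The median change was 1.96 points over the members and −4.65 over all shared regions. Of the 7 higher regions 4 belonged to ligand domains, 2 to receptors and 1 to a SMAD. Of the 4 in ligand domains 2 lay in the flanks of TGFB1 at starts of other genes. One was at CCDC97 and one at B9D2 and TMEM91, and both count below as near starts. Of the 6 lower regions 4 belonged to SMADs and 2 to receptors. Near starts, or near either end of genes with none listed, 6 of 11 were higher and 2 lower. Farther away 1 of 13 was higher and 4 lower. Of all 31833 shared regions 10993 lay near starts or ends by the same rule. Their calls were not counted by position, so the shares of 17.7% and 41.8% do not allow for nearness to a start. Within each replicate number 11 were higher, against 23.3% of all.

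**Figure D4:**
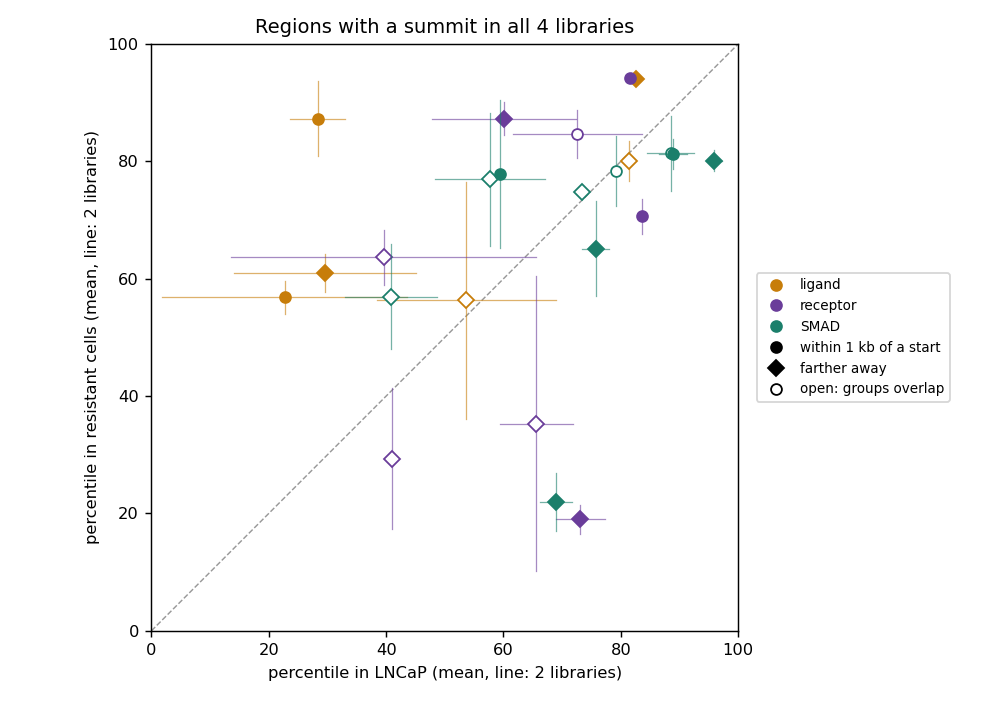
Mean percentile in resistant cells (vertical axis) against LNCaP (horizontal axis) for the 24 regions with summits in all 4 libraries, with lines joining the 2 libraries of a group, circles within 1 kb of the gene's own starts, diamonds farther away and open symbols where the groups overlap. All ligand regions except 1 at TGFB2 lie above the dashed line of equality, with the TGFB2 promoter at 28.3 in LNCaP and 87.3 in resistant cells, and the lowest resistant means belong to regions of TGFBR3 and SMAD3 that lie 34.7 and 1.48 kb from a start.

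After the TGFB2 promoter, the largest increases among shared regions were at the TGFB1 region inside the gene, at a TGFB1 flank region that coincides with the start of CCDC97 (45.1 and 14.1 against 64.2 and 57.7), at a region at −8.95 kb from a TGFBR2 start and at the third start of SMAD3. The upstream region of TGFBR2 (chr3:30597389-30597407) had percentiles of 72.3 and 47.8 in LNCaP and 90.0 and 84.5 in resistant cells, and no other gene start lay within 1 kb of it. Besides those of TGFBR3 and SMAD3, the largest decreases included a SMAD7 region 12.6 kb inside the gene, at 73.3 and 78.0 against 73.2 and 57.0, where the groups were separated by a small margin. At TGFB2 the shared region that was strongest in LNCaP, downstream of the gene, overlapped at 81.9 and 80.9 against 76.7 and 83.5.

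Other genes of the pathway were examined with a list of 48 genes grouped by function, which was drawn up with earlier results of these data known. For 7 of these no start was listed, and a summit within 1 kb of either end of the gene was taken instead. In all 46 had a summit, 17 had higher and 9 lower percentiles in both resistant libraries, and the median change was 3.34 points. Of the 41 genes with a listed start 40 had a summit near it, 15 were higher and 8 lower, beside 28.7% higher and 21.3% lower over all genes with a listed start. Of the 7 target genes 2 were higher and 2 lower. CCN2, which encodes connective tissue growth factor, had 29.6 and 0 in LNCaP and 69.4 and 80.7 in resistant cells. ID3, an inhibitor of differentiation, had 72.8 and 80.0 against 64.3 and 47.7. The targets thus included both directions, and COL1A1, for which no start was listed, had no summit near either gene end.

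Of 11 genes for activation and latency of the ligands, 5 were higher and 3 lower. Among the 10 with a listed start 4 were higher and 3 lower, beside 28.7% and 21.3% of all genes. THBS1, a matrix protein that activates latent TGF-beta, had 38.7 and 0 in LNCaP and 86.1 and 77.6 in resistant cells. FURIN, the protease that cleaves the TGF-beta precursor, had 72.9 and 76.9 against 33.0 and 18.3, a change of −49.3 points and the largest decrease in the list among genes that did not overlap. Of 8 other ligands and antagonists 2 were higher, namely BMP4, a bone morphogenetic protein (56.3 and 15.0 against 84.1 and 76.4), and INHBA, the activin A subunit (45.2 and 43.8 against 84.7 and 81.1). NOG, the BMP antagonist noggin, was lower, at 78.3 and 69.9 against 65.7 and 60.0.

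Of 10 other receptors 4 were higher and 1, BMPR1B, was lower (87.5 and 81.2 against 71.7 and 65.4). The largest increase among them was at ACVRL1, a type I receptor of endothelial cells (13.9 and 0 against 52.1 and 33.9). Of the 4 other SMADs, SMAD5, SMAD6 and SMAD9 were higher and SMAD1 overlapped. Of 8 negative regulators 1 was higher and 2 lower, including PMEPA1, which restrains TGF-beta signalling (71.5 and 76.8 against 66.7 and 51.1). ACVRL1, NOG and LRRC32 are among the called genes that have no listed start. Over all genes with a listed start 28.7% were higher and 21.3% lower, and these shares do not cover genes without one. Of the 8 other receptors with a listed start and a summit near it 3 were higher and 1 lower.

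**Figure D5:**
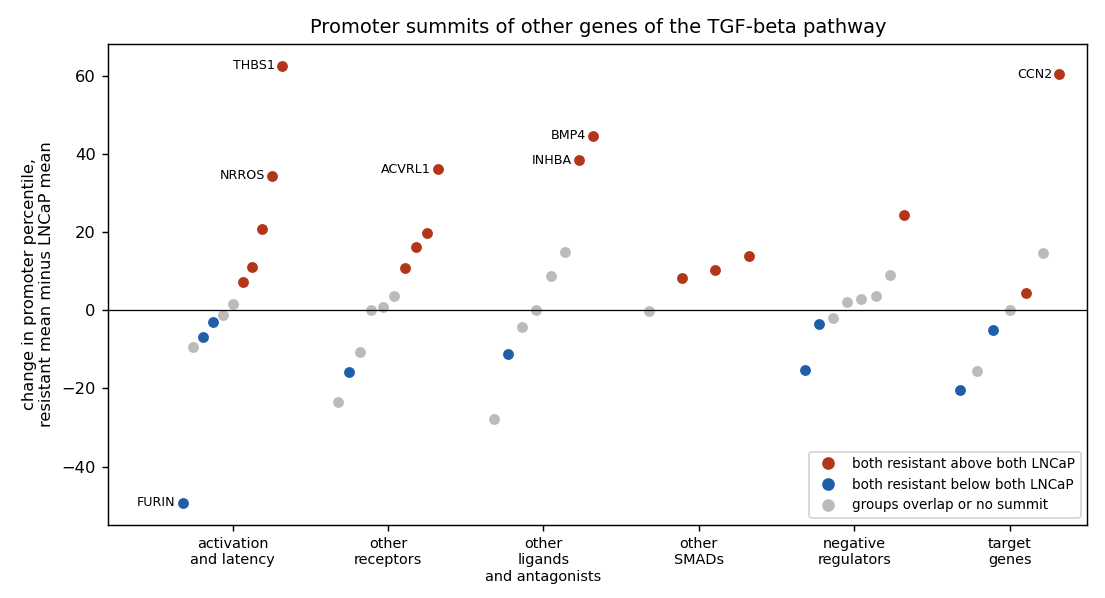
Change in promoter percentile, resistant mean minus LNCaP mean (vertical axis), for the 48 other pathway genes by role, with red for both resistant libraries above both LNCaP libraries, blue for the reverse and grey for overlap or no summit. The changes reach 62.5 at THBS1 and 60.3 at CCN2 and extend down to −49.3 at FURIN.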

How the data were processed

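ATAC-seq was made from LNCaP and LNCaP-resistance cells with 2 libraries each. Per library, called separately, the authors deposited the positions of peak summits, in which the score has the −log10 form of a p-value or q-value (which of these is not given in the sources used here) and starts just above the value for 0.05. The submitters' processing notes name Bowtie2 2.2.5, SAMtools 1.6, MACS2 2.2.6 and hg38, without their settings. Summits are kept where enough reads pile up, so a shallower library loses weak sites first.

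Summits were ranked within libraries, widened by 250 bp, merged and assigned to the 10 genes with 20 kb flanks, using RefSeq tables of GRCh38.p14. Starts were taken from the promoter table, and where it lists none for a gene, a summit within 1 kb of either gene end was used. All 10 members were found, with 26 listed starts. Regions were named by presence or by the largest changes among the regions that did not overlap. Members, lists and motifs were chosen with earlier results of these data known. One gene of the planned pathway list is not reported here. The scripts were tested on simulated data. Python 3.11.15, numpy 2.4.6 and pandas 2.3.3 were used.

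Replicate numbers mark a batch in the labels. Across 31833 shared regions the deviations of replicate 1 from the group mean correlated between cell types with r = −0.0121, a description over regions.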

Additional observations from a re-analysis of the deposited data

How the results depend on the processing

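Of 118 counts recomputed under the alternatives 80 stayed within 1.5 times the reported count and 38 did not. Of 280 changes at single genes 223 stayed called or uncalled as reported, 36 became called in the reported direction, 11 lost the call, 6 uncalled changes became called in the opposite direction and 4 called changes reversed. The 4 were the summits per 100000 at TGFB1 with scores of at least 10 (1.65) or with lists of equal length (1.10), those at TGFB2 with flanks of 50 kb (−0.94), and the TGFBR3 promoter with lists of equal length (1.98). With scores of at least 10 there were 12 shared and 15 LNCaP-only regions, 3 shared regions lower and 3 higher, and 6 members with more summits per 100000. With lists of equal length there were 11 shared, 9 LNCaP-only and 8 resistance-only regions, 1 shared region lower, 0 promoters lower and 1 member with fewer summits per 100000. Counting presence in at least 1 library gave 53 LNCaP-only and 13 resistance-only regions and 10 shared regions lower. The gene body alone gave 4 shared regions higher, and the strongest summit of the domain lower at 5 members and higher at 2, and flanks of 50 kb gave 10 shared regions lower. Percentiles taken among shared regions alone gave 3 lower and 12 higher. A promoter limit of 500 bp left 2 promoters higher, and the first listed start alone, an alternative added after the data were seen, gave 2 lower.

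Comparison within each replicate number (replicate block) gave 11 shared regions higher and 5 members with more summits per 100000, added TGFBR2 to the promoters that were higher, and moved no other count by over 1.5 times. Leaving out each library in turn gave 28 to 42 LNCaP-only regions (42 without LNCaP replicate 2), 4 to 12 resistance-only (12 without resistant replicate 2), 24 to 30 shared, 9 to 14 shared regions higher, 7 to 12 lower, 2 to 4 promoters lower, 3 to 6 members with more and 3 to 5 with fewer summits per 100000. With 1 library left in a group, presence and separation are easier to reach, which raises these counts by construction. For the remaining differences the cause was not tested. Depth is unknown, so a site absent from the shorter resistant lists may lie below their threshold.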

Other observations

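Between 20 and 50 kb from the 10 genes lay 36 further regions. Of these 9 were shared, 11 were LNCaP-only, 0 were resistance-only and 16 were mixed. Of all regions 27.5% were LNCaP-only and 3.84% resistance-only. SMAD7 had 3 of the shared regions, and SMAD2 and TGFB2 had 3 LNCaP-only regions each.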
